A study of Mus musculus with 20 samples.

Results

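The dense-core granule and prohormone processing genes followed here were 10 genes chosen by symbol: the granins Vgf, Scg2, Chga, Chgb and Scg3, the prohormone convertases Pcsk1 and Pcsk2, their protein partners Scg5 and Pcsk1n, and the carboxypeptidase Cpe. All 10 had a row in both deposited tables, among 37994 genes in the developmental series and 36104 in a second E18 set. The mouse habenula, a small epithalamic nucleus with a medial and a lateral division, was profiled well by well with CEL-seq2, a plate-based single-cell chemistry that counts transcripts by unique molecular identifiers (UMIs). The series comprised 15 plates from the Brn3a-tauLacZ line, named for a tau-lacZ reporter and for Brn3a, the older name of the transcription factor gene Pou4f1. Its stages were embryonic (E11, E12, E13, E15 and E18) or postnatal (P4, P7 and adult), each with 2 plates except E12, which had a single plate (n = 1). The other set, of C57BL/6 mice, comprised 5 plates taken at E18: 2 held cells of the left habenula, 2 of the right, and 1 of both. The sources used here do not give the number of animals behind a plate, the genotype at the reporter locus or any sort gate, and p-values therefore measure the spread between plates, which may be technical.

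Dense-core granules are the organelles in which neurons and endocrine cells store peptide transmitters. Granins help to form the granule core, and several are themselves cut into active peptides. Prohormone convertases cleave peptide precursors at pairs of basic residues, and carboxypeptidase E then trims the exposed basic residues. The medial habenula is known for neurons that use the tachykinin peptides substance P, encoded by Tac1, and neurokinin B, encoded by Tac2, beside acetylcholine and glutamate. Pou4f1 marks habenular neurons.

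In the GENCODE M21 annotation (GRCm38) the 10 genes are spread over several chromosomes. The granins are Vgf (chr5:137026392-137033351), Scg2 (chr1:79434669-79440120), Chga (chr12:102554969-102565028), Chgb (chr2:132781278-132795079) and Scg3 (chr9:75643189-75684056). The convertases are Pcsk1 (chr13:75089826-75134861) and Pcsk2 (chr2:143546156-143816285), and their partners Scg5 (chr2:113776362-113829121) and Pcsk1n (chrX:7919822-7924410). Cpe lies at chr8:64592542-64693054. Counts were per whole gene, so isoforms were not told apart.

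The cyclic-AMP response element, TGACGTCA, is shown first because several granule genes are textbook targets of the factors that bind it. The RefSeq table of promoters (GRCm38.p6, 250 bases before to 50 after each gene's start) held 8 of the 10 genes, all but Vgf and Cpe. The full motif, which reads the same on both strands, was found in 3 of these 8, Scg2, Chgb and Pcsk1, and in 588 of the table's 32851 promoters (1.79%). Its first 6 bases, TGACGT, searched on both strands and counted also inside the full motif, were found in 5 of the 8, Chga and Scg5 being the other two, and in 2468 promoters (7.51%). The windows of 30 bases around a match are printed for all 5, on the strand of each gene, with the match in capitals.
Scg2: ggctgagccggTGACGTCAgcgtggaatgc
Chgb: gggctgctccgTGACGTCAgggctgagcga
Pcsk1: ccaggtagatcTGACGTCAagagatggctt
Chga: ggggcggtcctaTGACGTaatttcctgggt
Scg5: aaaggaggtaaaTGACGTtcataggggtcg
The match began 68 bases before the RefSeq start in Scg2 (window chr1:79440076-79440105, minus strand), 72 in Chgb (chr2:132781559-132781588, plus strand), 78 in Pcsk1 (chr13:75089768-75089797, plus strand) and 44 in Chga (chr12:102554885-102554914, plus strand). In Scg5, which held 2 matches of the shorter motif, the one shown began 175 bases before the start (chr2:113829249-113829278, minus strand). The Scg2 and Chgb windows lie inside the genes as GENCODE M21 draws them, since its starts are further upstream than those of RefSeq, while the other windows lie outside. These are matches of letters only; no measurement of factor binding was used here.

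Of the wells in the tables, 3729 of 5756 in the series and 1082 of 1920 in the C57BL/6 set passed the filters. Their summed counts were lowest on adult plate 1 (758697) and highest on P7 plate 1 (7760372), so that low levels are least precise on the former. The share of kept wells with a Pou4f1 UMI was 71.2% to 92.2% on 11 of the 15 series plates. It was lower on E13 plate 2 (51.1%), E18 plate 1 (28.1%), adult plate 1 (37.5%) and adult plate 2 (52.6%). E18 plate 1 also had the highest level of 9 progenitor markers, 3739 CPM (counts of a gene or list divided by all counts of the plate, times 1000000), against 217 on E18 plate 2. The adult plates held 11789 and 3267 CPM of 11 oligodendrocyte markers. Levels below are CPM of the summed counts of a plate, in which fewer expressing wells and fewer transcripts per well cannot be told apart. Levels of different genes are not compared with each other.

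Among the granins, Scg2, the precursor of secretoneurin, had the largest fold change from E11 to P7. Its level was 0.966 and 1.23 CPM on the E11 plates (5 and 6 UMIs), 4.84 at E12, 3.98 and 0 at E13, 1.09 and 11.0 at E15, and 12.4 and 12.1 at E18. It was then 60.9 and 59.1 CPM at P4, 146 and 196 on the P7 plates, and 108 and 174 on the adult plates. The 0 on E13 plate 2 allows up to 1.59 CPM (3 counts). Every postnatal plate lay above every embryonic plate of the series. Scg2 was 157-fold higher at P7 than at E11 (log2 change 7.29 ± 0.78 SE, adjusted p = 0.000102, edgeR quasi-likelihood test, 2 plates each), and the change was called under all 13 alternatives run.

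Chgb, a major soluble granin of the granule core, was at 66.3 and 66.0 CPM at E11 and 84.1 at E12. The level was 70.4 and 32.9 at E13, 33.1 and 93.3 at E15, and 31.5 and 94.2 at E18. The P4 plates were at 374 and 327, the P7 plates at 412 and 417, and the adult plates at 204 and 279. The embryonic plates of the series thus lay at or below 94.2 CPM and the postnatal plates at or above 204. The C57BL/6 plates at E18, given below, all lay above 94.2 CPM. Chgb was 6.48-fold higher at P7 than at E11 (log2 change 2.70 ± 0.58, adjusted p = 0.00588). That call was lost without either E11 plate (adjusted p = 0.0558 in both cases).

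Vgf, a neurosecretory precursor whose transcript is induced by neurotrophins, was at 19.9 and 21.2 CPM at E11 and 23.6 at E12. The E13 plates held 11.4 and 10.6 CPM, the E15 plates 10.3 and 6.54, and the E18 plates 1.60 and 21.9. After birth it was at 114 and 72.1 on the P4 plates, 78.8 and 133 on the P7 plates, and 179 and 15.1 on the adult plates, which lay on either side of the P4 and P7 plates. The 21 dissociation-response genes summed as a check stood at 3709 CPM on adult plate 1 and 4341 on adult plate 2, the highest sums of the series. Their part in the Vgf level was not tested. From E11 to P7 the Vgf change was 2.40 ± 0.93 on the log2 scale and did not pass the threshold (adjusted p = 0.0738).

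The remaining granins are Chga and Scg3. Chga, the granin first found in adrenal chromaffin granules, ranged from 39.1 CPM (E18 plate 1) to 119 CPM (P7 plate 2), with 86.2 and 96.9 at E11 and 85.8 and 52.1 in the adult. Scg3, which binds Chga and holds it at the granule membrane, ranged from 133 CPM (E13 plate 2) to 333 CPM at P4, with 245 and 250.2 at E11. Neither passed the test from E11 to P7, where the log2 changes were 0.41 ± 0.38 for Chga and 0.45 ± 0.26 for Scg3 (adjusted p = 0.452 and 0.225). Scg3 overlaps an annotated transcript on the other strand, Gm37871, and is uncertain to that extent.

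**Figure D1:**
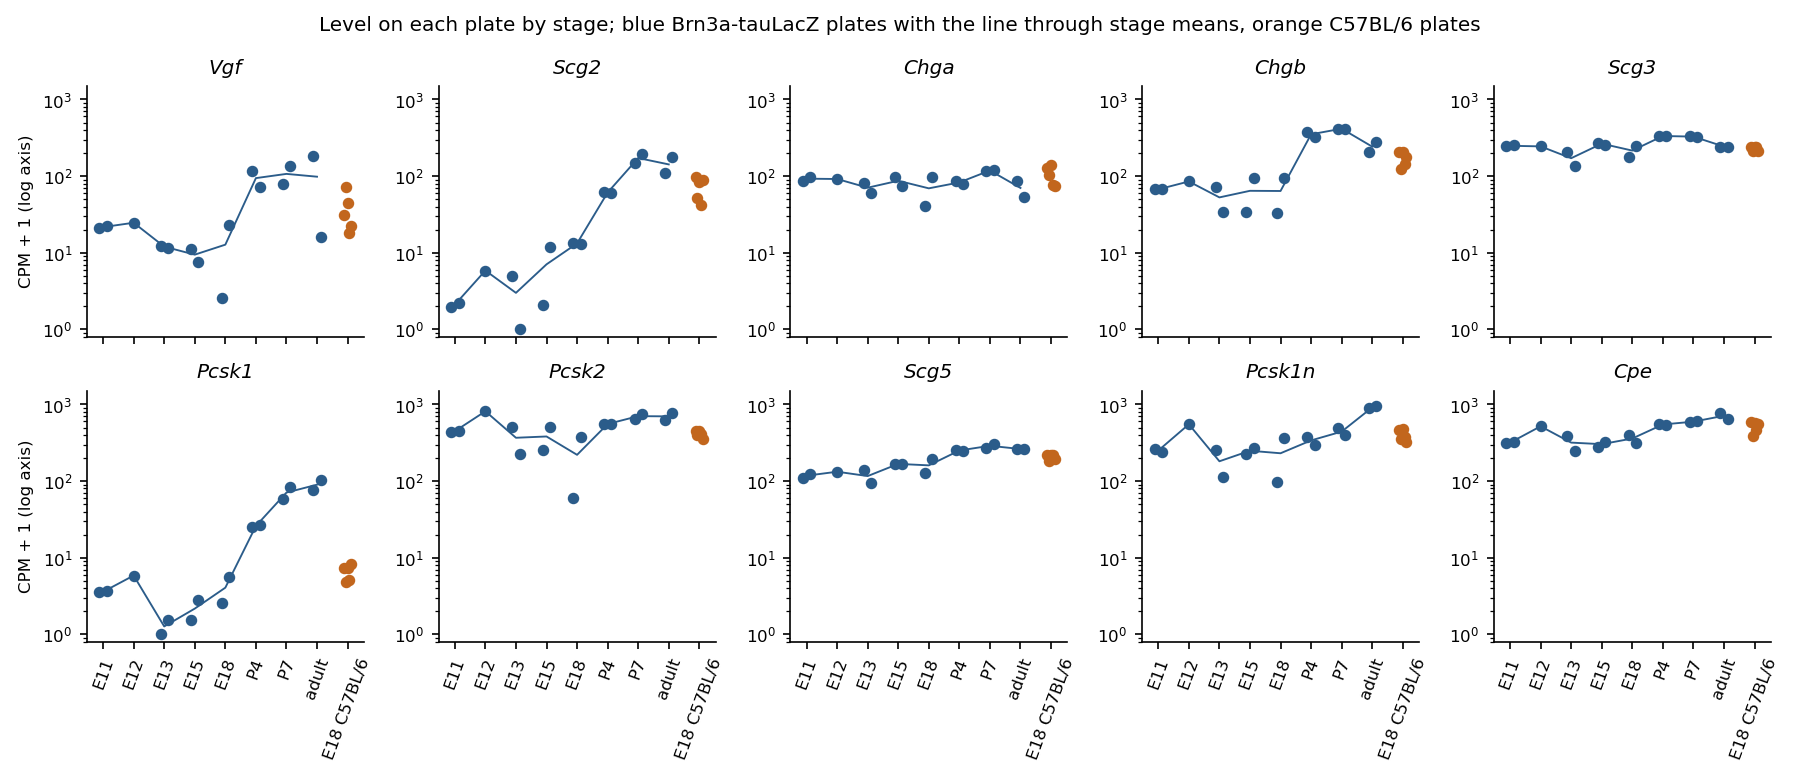
Level of each gene (CPM + 1, log axis) on each plate against stage, with blue points for the 15 Brn3a-tauLacZ plates, a line through their stage means and orange points for the 5 C57BL/6 plates at E18. Scg2, Chgb, Pcsk1, Scg5 and Cpe lie higher on all 6 postnatal plates than on the 9 embryonic plates of the series. How many of all genes split in this way was not counted. Chga stays between 39.1 and 119 CPM and Scg3 between 133 and 333 CPM in the series.

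Of the convertases, Pcsk1, which encodes the convertase PC1/3 of early precursor cleavage, was at 2.51 and 2.66 CPM at E11 (13 UMIs on each plate), 4.84 at E12, 0 and 0.531 at E13, 0.543 and 1.78 at E15, and 1.60 and 4.52 at E18. It was at 23.9 and 25.9 CPM at P4, 56.5 and 83.0 on the P7 plates, and 76.5 and 101 on the adult plates. The 0 on E13 plate 1 allows up to 1.7 CPM. Wells with a Pcsk1 UMI made up 0% to 4.12% of kept wells on the embryonic plates of the series, 24.8% and 25.4% on the P4 plates, 48.2% and 54.8% on the P7 plates, and 21.4% and 45.6% on the adult plates. Pcsk1 was 27.5-fold higher at P7 than at E11 (log2 change 4.78 ± 0.43, adjusted p = 4.3e-05), a call kept under all 13 alternatives.

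Pcsk2, which encodes the convertase PC2 of later cleavage steps, was already at 437 and 455 CPM at E11, 814 at E12, 509 and 224 at E13, 249.9 and 512 at E15, and 58.7 and 379.6 at E18. It was at 556 and 553 at P4, 645 and 761 on the P7 plates, and 620.2 and 777 on the adult plates. The highest level of all 15 plates was that of the E12 plate, which has no replicate. From E11 to P7 the log2 change was 0.70 ± 0.69 (adjusted p = 0.470). Pcsk2 overlaps the antisense genes Pcsk2os1 and Pcsk2os2, and the sources used here do not give whether counting used strand.

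Of the convertases' partners, Scg5 encodes 7B2, the chaperone that PC2 needs to mature. It was at 109 and 124 CPM at E11, 131 at E12, 137 and 93.5 at E13, 166 and 167 at E15, and 125 and 194 at E18. The postnatal plates were between 248 CPM (P4 plate 2) and 305 CPM (P7 plate 2), with no overlap with the embryonic plates. Scg5 was 2.55-fold higher at P7 than at E11 (log2 change 1.35 ± 0.28, adjusted p = 0.00461), with an adjusted p of 0.0566 without E11 plate 1. Pcsk1n encodes proSAAS, an inhibitor of PC1/3. It was at 261 and 238 CPM at E11, 550.4 at E12, 250.1 and 111 at E13, 226 and 269.7 at E15, and 97.4 and 362 at E18. It was at 378 and 299 at P4, 489 and 394 on the P7 plates, and 885 and 945 on the adult plates, so that both adult plates lay above all others. The step from P7 to the adult did not pass the test (log2 change 0.94 ± 0.54, adjusted p = 0.350). Pcsk1n overlaps Eras on the other strand.

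Cpe, which is expressed in astrocytes as well as in peptidergic neurons, was at 313 and 319 CPM at E11, 518 at E12, 387 and 247 at E13, 279.7 and 324 at E15, and 399 and 317 at E18. It was at 554 and 539.6 at P4, 585 and 606 on the P7 plates, and 769 and 653 on the adult plates. Cpe was 1.95-fold higher at P7 than at E11 (log2 change 0.96 ± 0.25, adjusted p = 0.0157), a call lost when any of the 4 plates was left out (adjusted p = 0.0769 to 0.109). On adult plate 1 the wells without Pou4f1 that carried myelin transcripts held 1501 CPM of Cpe, against 555 CPM in the Pou4f1-positive wells. On adult plate 2 the order was the other way, with 426 and 618 CPM.

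From E11 to P7 5 of the 10 genes were called, all higher: Scg2, Chgb, Pcsk1, Scg5 and Cpe. The background was 28.6% of 17453 genes called, and 15.4% called higher. The median log2 change was 1.16 over the 10 genes and 0.03 over all genes tested. Leaving out E11 plate 1 or E11 plate 2 left 2 and 3 calls. Along the order of the 8 stages, over all 15 plates, 6 rose: Scg2 by 1.13 ± 0.12 per stage on the log2 scale, Pcsk1 by 0.86 ± 0.14, Vgf by 0.44 ± 0.14, Chgb by 0.43 ± 0.10, Scg5 by 0.22 ± 0.04 and Cpe by 0.16 ± 0.05 (adjusted p = 1.08e-05 to 0.0227). Here the background was 30.5% of 20324 genes, and 17.2% in the rising direction. Between 5 and 7 were called when any 1 plate was left out; without adult plate 1 the adjusted p of Vgf was 0.0668. For the fits with a plate left out the share of all genes called is not given here. Those counts are not read as results about the 10 genes. The stage comparisons share plates and are not independent of each other. Where a plate is left out of a stage of 2, its lone plate is assumed to vary like the plates of the other stages. Lists of cell type markers also moved from E11 to P7. The progenitor list was at 917 and 916 CPM at E11 and 249 and 202 at P7, and 10 neuronal markers were at 12774 and 12804 against 6693 and 6929. For 9 vascular markers the sums were 67.9 and 5.11 against 776 and 265. Their part in the changes of the 10 genes was not tested.

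Between the neighbouring stages E18 and P4, 6 of the 10 genes were called, all higher: Pcsk1 (10.7-fold), Vgf (10.4-fold), Chgb (6.43-fold), Scg2 (5.75-fold), Scg3 (1.79-fold) and Cpe (1.79-fold). The log2 changes were 3.41 ± 0.49, 3.38 ± 1.08, 2.68 ± 0.59, 2.52 ± 0.63, 0.84 ± 0.27 and 0.84 ± 0.25, with adjusted p = 0.00199 to 0.0487. The background was 19.6% of genes called, and 9.2% called higher. Scg5 had a log2 change of 0.85 ± 0.28 and an adjusted p of 0.051. Leaving out any 1 of these 4 plates moved the count, in fits where a stage rests on 1 plate. The count was 1 when only these 4 plates were fitted. With the Pou4f1-positive wells alone it was 5, in a fit that called 3337 of 16353 genes. The fit of only the 4 plates called 528 of 14765 genes. The sizes also depended on the E18 plates. Without E18 plate 1 and without E18 plate 2, the log2 change was 2.21 and 6.20 for Vgf, 2.02 and 3.84 for Chgb, and 2.58 and 4.31 for Pcsk1. E18 plate 1 is the plate with few Pou4f1-positive wells, and it was the lower E18 plate for 8 of the 10 genes, all but Scg2 and Cpe.

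In the other steps between replicated stages no gene of the 10 was called by edgeR with all 14 plates and the low-count filter. The background was 1.45% for E11 to E13, 0.0917% for E13 to E15, 0.195% for E15 to E18, 0.00573% for P4 to P7 and 3.58% for P7 to the adult. At an unadjusted p under 0.05 there were 2, 2, 0, 2 and 1 genes, beside 3098, 2183, 3009, 475 and 3607 of all 17453. DESeq2 called 0, 0, 0, 1 and 0, and the share of all genes it called is not given here. Without E18 plate 2, 3 genes were called from E15 to E18, all lower, in a fit that called 2100 of 19982 genes and rested on E18 plate 1, the plate with few Pou4f1-positive wells, as its only E18 plate. From P4 to P7, 3 genes of the 10 were called when only those 4 plates were fitted, beside 541 of 14871 genes. Without the low-count filter 2 were called, beside 136 of 37590 genes. From P4 to P7 the largest log2 changes were 1.49 ± 0.54 for Scg2 and 1.46 ± 0.35 for Pcsk1.

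**Figure D2:**
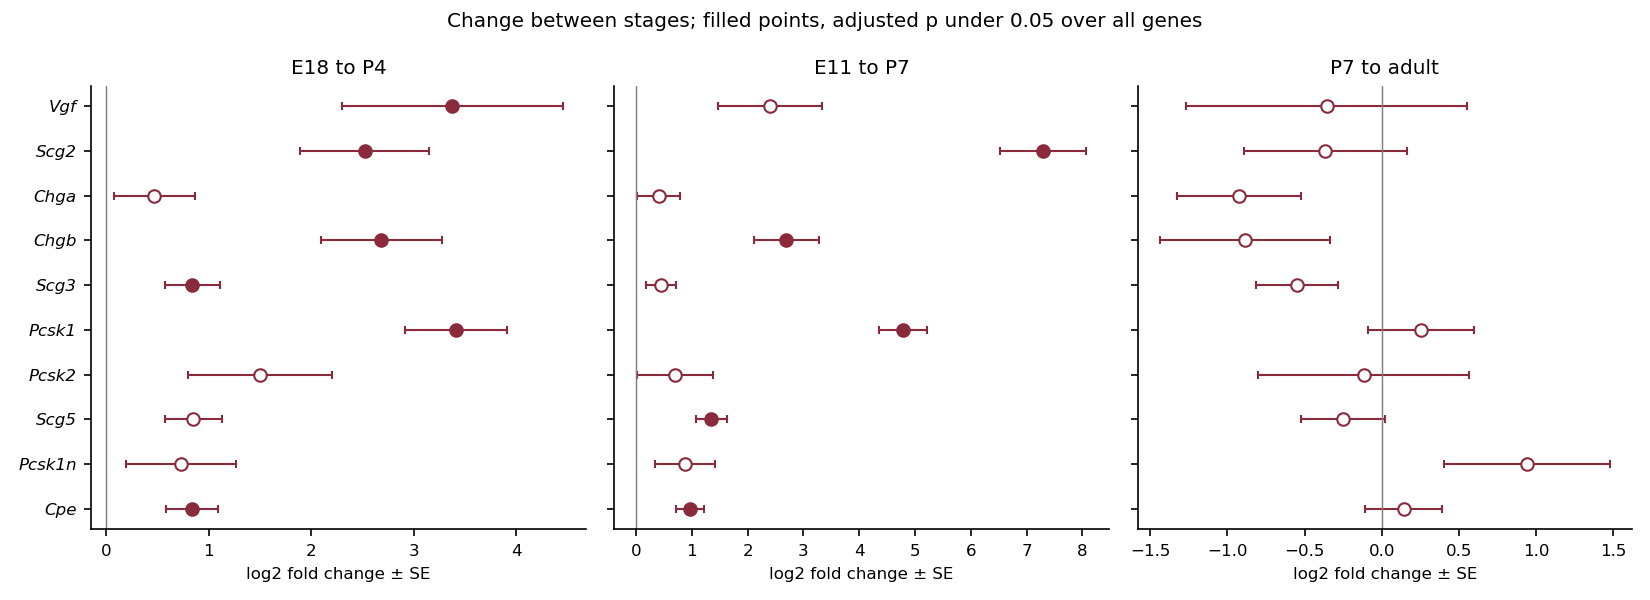
Log2 fold change (x axis, ± SE) of each gene from E18 to P4, from E11 to P7 and from P7 to the adult, with filled points where the adjusted p over all genes was under 0.05. Filled points number 6, 5 and 0 in the 3 panels, and all filled points lie to the right of 0.

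Other genes of the granule pathway, from a list of 42, were tested in the same fits, with 41 past the low-count filter. How calls of the lists in this paragraph change with a plate left out was not examined. The E18 to P4 values include E18 plate 1, the plate with few Pou4f1-positive wells. From E18 to P4 14 were higher and 2 lower, beside 19.6% of all genes called, with a median log2 change of 0.81 against -0.07 over all genes. Syt9, a calcium sensor of exocytosis, was 14.8-fold higher (log2 change 3.89 ± 0.98), and Ptprn, a transmembrane protein of the granule, was 9.78-fold higher (3.29 ± 0.76). Cpm, a membrane carboxypeptidase, was 8.95-fold lower (adjusted p = 0.0147 to 0.047 for the 3). From E11 to P7 17 were higher and 3 lower, beside 28.6% of all genes called, with a median of 0.74 against 0.03. The largest changes were in Syt9 (7.49 ± 1.17), the granule priming factor Cadps2 (5.93 ± 0.80) and the granule docking GTPase Rab27b (5.78 ± 0.82). Of 26 peptide precursor genes, 14 passed the filter. From E18 to P4 5 of them were higher and 0 lower, again beside 19.6% of all genes, with a median of 0.89. Tac2 was 30.4-fold higher (4.93 ± 0.73), Cartpt 19.9-fold (4.32 ± 0.71) and Cck 13.2-fold (3.72 ± 0.57). From P4 to P7 Cck, the cholecystokinin precursor, was again higher, by 12.7-fold (3.67 ± 0.32, adjusted p = 0.00554). It was the only gene of all 17453 called in that step in this fit. Without wells above 3 times the plate median 0 of 17030 genes were called. With only the 4 plates fitted 541 of 14871 were called.

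On the C57BL/6 plates at E18 the levels of Scg2 and Chgb lay above both E18 plates of the Brn3a-tauLacZ line. Scg2 was at 97.0 and 50.3 CPM for the left, 83.7 and 40.7 for the right and 86.8 for both sides together, against 12.4 and 12.1 in the series. Chgb was at 206 and 123, 204 and 142, and 175 CPM, against 31.5 and 94.2. The P4 levels of Scg2 in the series, given above, lie within the range of these 5 plates. Those of Chgb lie above all 5. How many of all genes separate the E18 plates of the 2 lines in this way was not counted. Pou4f1-positive wells made up 46.2% to 81.0% of kept wells on the C57BL/6 plates. On the E18 plates of the series they made up 28.1% and 85.5%. The part of this makeup in the levels was not tested. The 2 sets are different mouse lines in separate tables, and no test was made between them. Pcsk1 was at 3.78 to 7.29 CPM on the 5 plates and 1.60 and 4.52 in the series, so those ranges overlapped. None of the 10 genes differed between left and right by edgeR (background 0% of 15489 genes, with 0 of the 10 at an unadjusted p under 0.05 and 0 by DESeq2). The log2 changes from left to right ran from -0.63 ± 0.45 (Vgf) to 0.09 ± 0.18 (Scg5). The 5 erythroid markers summed to 19048 and 17219 CPM on the left plates and 3410 and 265 on the right plates; their part in the left-right values was not tested.

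The relation to the tachykinin genes was read within plates, among wells with a Pou4f1 UMI, with the plate as a block. A plan based on the presence of a UMI met a limit after birth. On the adult plates, wells with myelin transcripts and no Pou4f1 UMI carried Tac2 UMIs in 95.5% and 98.4% of wells, at 957 and 619 CPM, against 100% and 99.4% at 2080 and 2473 CPM in Pou4f1-positive wells. Median depths were 5739 and 7493 counts in the first class and 14003 and 22176 in the second. A Tac2 UMI in an adult well was therefore not taken as a mark of a Tac2-expressing cell. At P7, wells without Pou4f1 or myelin transcripts carried Tac2 UMIs in 74.1% and 59.4% of wells, against 97.0% and 87.6% of Pou4f1-positive wells. Comparisons by level were added after these shares were seen. Tac1-high wells had at least 200 CPM of Tac1 and Tac1-low wells under 50 CPM, on the 5 plates of P4, P7 and the adult with at least 10 wells of each class.

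In Tac1-high wells 4 of the 10 genes were higher than in Tac1-low wells: Vgf, Scg2, Pcsk2 and Chga. Vgf was at 255 against 94.96 CPM on P4 plate 1, 118 against 73.9 on P4 plate 2, 163 against 62.4 on P7 plate 1, 219 against 105 on P7 plate 2, and 15.7 against 18.0 on adult plate 2. All plates but the adult one had the higher level in Tac1-high wells. The log2 change was 1.09 ± 0.15 (2.13-fold, adjusted p = 0.000199). Scg2 was at 116 against 56.8 CPM, 251 against 51.6, 206 against 129, 253 against 157 and 354 against 182 on the same plates. It was higher on 5 of 5 plates (log2 change 0.99 ± 0.17, 1.99-fold, adjusted p = 0.00108).

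Pcsk2 was at 809.8 against 536 CPM and 1015 against 543 at P4, 875 against 574 and 1028 against 669.8 at P7, and 1079 against 867 on adult plate 2. It too was higher on 5 of 5 plates (0.58 ± 0.09, 1.5-fold, adjusted p = 0.000547). Vgf, Scg2 and Pcsk2 were called under all 8 alternatives run for this comparison. Chga was at 145 against 83.9, 58.8 against 77.5, 145 against 112, 166 against 109 and 84.5 against 56.6 CPM, higher on 4 of 5 plates. Its log2 change was 0.47 ± 0.13 (adjusted p = 0.0283), and the call was lost in 5 of the 8 alternatives, with an adjusted p of 0.204 without P7 plate 2.

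The 4 calls of 10 stand beside a background of 11.9% of 12025 genes, and the median log2 change was 0.38 over the 10 genes against -0.01 over all. Among those not called, Pcsk1n was higher in Tac1-high wells on 5 of 5 plates (0.29 ± 0.09, adjusted p = 0.0656). Pcsk1 was higher on 4 of 5 plates, from 58.9 against 57.05 CPM on P7 plate 1 to 229.9 against 98.1 on adult plate 2, and was at 21.4 against 26.7 on P4 plate 2 (0.58 ± 0.20, adjusted p = 0.0861). Chgb had a negative change, -0.32 ± 0.14, and was lower on 4 of 5 plates (adjusted p = 0.2001). Scg3, Scg5 and Cpe had log2 changes of 0.01, 0.08 and 0.08. Beside these, Pou4f1 and Tac2 were themselves higher in Tac1-high wells on 5 of 5 plates, and Cck was 20.8-fold higher. In the same fit 6 of 39 granule pathway genes were higher and 2 lower, beside 11.9% of all genes called, with a median log2 change of 0.035 over the list against -0.0053 over all genes. The 3 largest called changes were in Rab3b (2.67-fold), Baiap3 (2.46-fold) and Syt5 (1.96-fold), which act in regulated exocytosis.

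**Figure D3:**
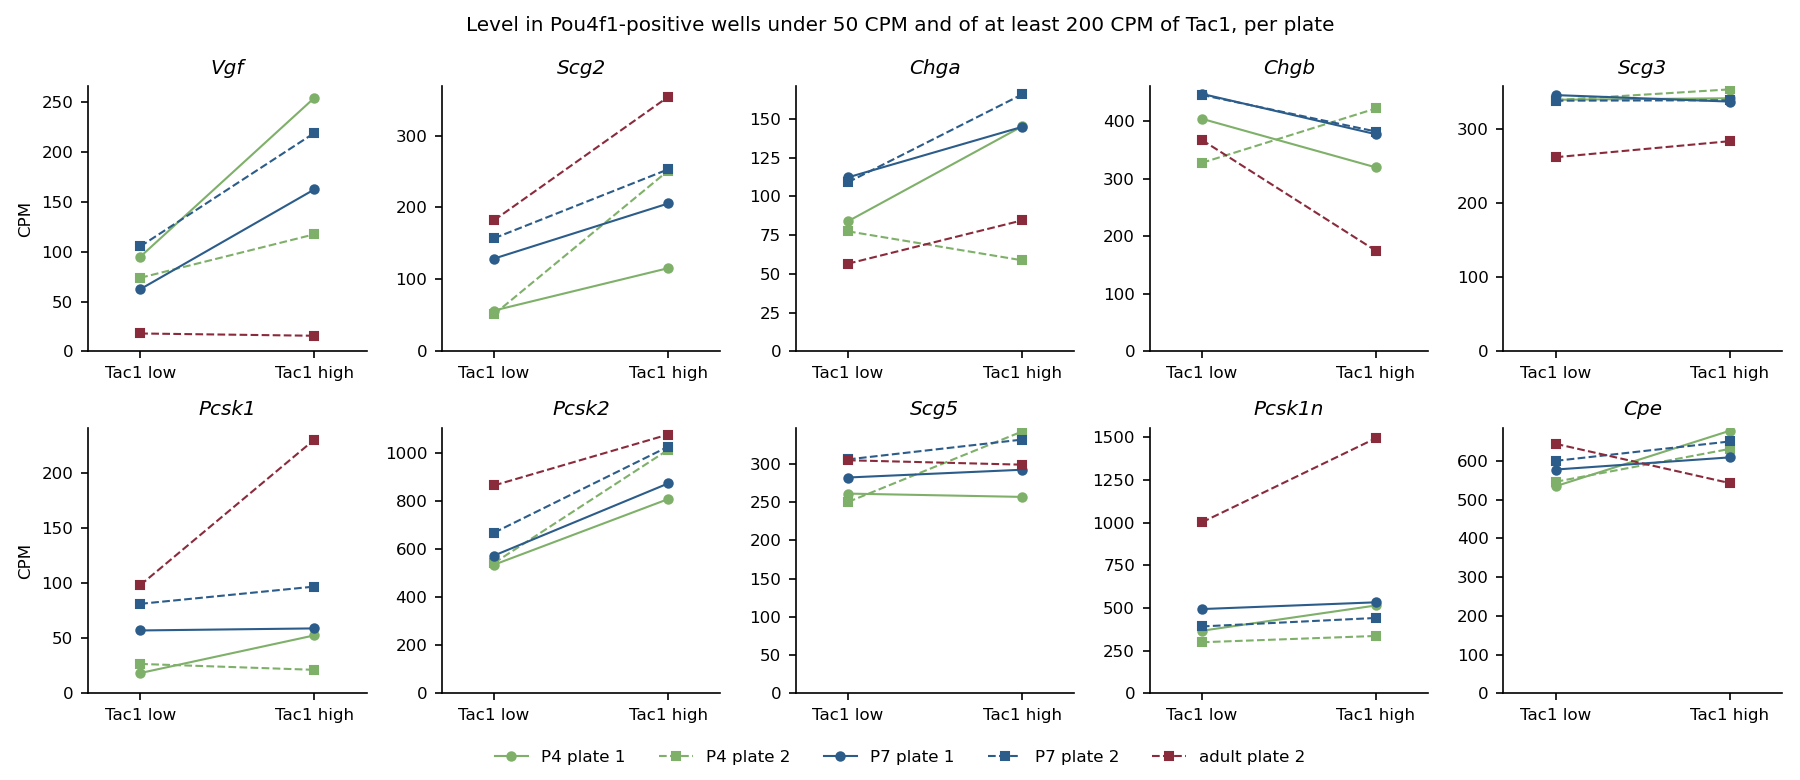
Level of each gene (CPM, linear axis from 0) in Tac1-low and Tac1-high wells among Pou4f1-positive wells, with 1 line per plate. Lines rise on 5 of 5 plates for Scg2, Pcsk2 and Pcsk1n, and on the 4 P4 and P7 plates for Vgf, whose adult plate stays at 15.7 and 18.0 CPM.

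Wells were also ranked by Tac2. On P4 plate 2, 20 wells with Tac1 alone and 115 with neither transcript were tied with no Tac2 UMI. The lower tercile of that plate was 97 of these tied wells, taken in their listed order. Between the upper and the lower tercile of Tac2 level on each plate, Vgf was lower in the upper tercile on 5 of 5 plates, at 113 against 134, 65.2 against 82.8, 70.9 against 114, 97.8 against 169 and 17.1 against 25.1 CPM. The log2 change was -0.51 ± 0.10 (adjusted p = 0.00876, background 4.38% of 11531 genes). It was called in 4 of 8 alternatives, and the adjusted p was 0.0691 without P7 plate 1 and 0.078 without P7 plate 2. The other 9 genes were not called, with log2 changes from -0.14 (Chga) to 0.16 (Pcsk1). Pcsk2 and Cpe were each higher in the upper tercile on 5 of 5 plates (0.15 ± 0.06 and 0.14 ± 0.06, adjusted p = 0.268 and 0.275). Tac1 was itself higher there on 5 of 5 plates. When Tac1-high wells outside the upper Tac2 tercile were set against Tac1-low wells inside it, on 4 plates, Vgf was at 244 against 78.6 CPM, 167 against 26.6, 208 against 35.4 and 11.1 against 12.9. The log2 change was 2.10 ± 0.25 (4.29-fold, adjusted p = 2.7e-05), called under all 7 alternatives. Chga, Scg2 and Pcsk2 were also higher (0.80 ± 0.19, 0.73 ± 0.18 and 0.54 ± 0.13), 4 of 10 against a background of 9.83% of 9432 genes. Those 3 calls were each lost in 5 of 7 alternatives, among them leaving out P4 plate 1 or P7 plate 2, after which only Vgf was called. These comparisons share wells with the Tac1-high and Tac1-low classes.

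The comparisons by presence of a UMI could be made on only 3 plates, P4 plates 1 and 2 and P7 plate 2. Scg2 was at 109, 87.6 and 309 CPM in wells with Tac1 alone and at 54.9, 57.6 and 145 in wells with Tac2 alone (log2 change 0.83 ± 0.19, adjusted p = 0.0193). The shares of Tac2-positive wells given above for P7 limit what these classes mean on P7 plate 2. It was the only gene of the 10 called (background 1.91% of 11870 genes), and the adjusted p was 0.182 without P4 plate 1 and 0.172 without P7 plate 2. Against wells with neither transcript, none of the 10 was called in wells with Tac1 alone (background 1.31%) or with Tac2 alone (background 0.379%) by edgeR or by DESeq2. At an unadjusted p under 0.05 there were 1 and 0.

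Before birth, wells with a Tac1 UMI made up 36.4% to 66.9% of kept wells on 8 of the 9 series plates and 1.87% on E18 plate 1, which was not used here, while Tac2 was at 0 to 12.8 CPM on all 9. On 8 embryonic plates with at least 10 wells of each class, Pcsk2 was higher in Tac1-positive than in Tac1-negative wells on 8 of 8, although the E12 plate held 833.1 against 833.04 CPM. The values were 491 against 403 and 498 against 447 CPM at E11, 607 against 412 and 469 against 89.4 at E13, 285 against 173 and 552 against 446 at E15, and 546 against 280.1 on E18 plate 2. With a log2 change of 0.55 ± 0.15 this did not pass the threshold (adjusted p = 0.101). None of the 8 genes past the low-count filter was called by edgeR (background 1.64% of 10292 genes) or by DESeq2, and 2 had an unadjusted p under 0.05. Without E13 plate 2, 1 was called, in a fit whose share of all genes called is not given here. Pou4f1 was higher in the Tac1-positive wells on 8 of 8 plates. Those wells were also deeper on 8 of 8, with median counts of 10215 to 17271 against 7526 to 14749. After thinning each well to 4000 UMIs, 7 of the 10 genes were tested and 0 called. Scg2 and Pcsk1 were below the filter.

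On the 5 C57BL/6 plates at E18, Pcsk2 was higher in wells positive for either tachykinin. In Tac1-positive wells it was at 486 against 500.1 CPM on left plate 1, 607 against 322 on left plate 2, 598 against 400.1 on right plate 1, 536 against 393 on right plate 2, and 600.5 against 421 where both sides were pooled. It was thus higher on 4 of 5 plates (log2 change 0.51 ± 0.11, adjusted p = 0.0161). Pcsk1n was higher by 0.31 ± 0.07 (adjusted p = 0.0202), and these 2 calls of 10 stand beside a background of 5.97% of 11615 genes. In Tac2-positive wells Pcsk2 was at 553 against 472, 527 against 389, 667 against 392, 682 against 386 and 629 against 439.9 CPM, higher on 5 of 5 plates (0.58 ± 0.09, adjusted p = 0.00217). It was the only call among 9 genes tested (background 4.85% of 11303 genes). These classes overlap: Tac2 was 1.85-fold higher in Tac1-positive wells (adjusted p = 0.0202) and Tac1 was 1.55-fold higher in Tac2-positive wells (adjusted p = 0.0133), each on 5 of 5 plates. Pou4f1 was higher in the positive wells on 5 of 5 plates for each tachykinin, and its part in these values was not tested. Positive wells were deeper than negative wells, with median counts of 20690 to 60529 against 16899 to 30639 for Tac1. After each well was thinned to 4000 UMIs none of the 10 genes was called for Tac1 or for Tac2. Thinning also left fewer plates (4 for Tac1 and 3 for Tac2, against 5) and fewer genes tested (4843 and 5618), and the part of each in the lost calls was not tested. The Pcsk2 changes were 0.39 and 0.42 (adjusted p = 0.09 and 0.53). Leaving out either right plate left 0 calls for Tac1, and leaving out left plate 1 left 1. Without left plate 2 there were 2 calls for Tac2. The share of all genes called in these fits with a plate left out is not given here. These counts are not read as results about the 10 genes.

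Unspliced transcripts, which the authors tabulated separately, gave a second readout. Over the series plates pooled, the unspliced share of UMIs was 0.135% for Vgf, 0.233% for Scg2, 0.632% for Pcsk1n, 2.70% for Chga and 2.92% for Chgb. It was 12.7% for Cpe, 13.5% for Scg3, 30.6% for Scg5, 42.1% for Pcsk1 and 53.5% for Pcsk2 (plates with at least 100 UMIs of the gene). The unspliced share of Scg5 was 37.8% to 55.5% on the 9 embryonic plates, 18.4% to 24.9% on the 4 plates of P4 and P7, and 38.8% and 26.1% in the adult. Unspliced Scg5 UMIs amounted to 39.3 to 85.1 CPM on the embryonic plates and 46.1 to 62.4 CPM at P4 and P7, with overlapping ranges. Other Scg5 UMIs amounted to 48.5 to 108 CPM and 186 to 242 CPM, with none overlapping. The 5 C57BL/6 plates at E18 lay between these periods, with an unspliced share of 31.6% to 33.8% and 123 to 147 CPM of other UMIs, and their 58.9 to 71.9 CPM of unspliced UMIs overlapped with both. The unspliced share of Cpe was 13.2% to 19.2% on the embryonic plates of the series and 9.13% to 11.2% at P4 and P7. In the adult it was 15.2% and 14.2%. Between the same periods, levels of unspliced UMIs overlapped and levels of other UMIs did not for Vgf, Scg2, Chgb, Scg3 and Cpe too. Vgf and Scg2 held at most 0.543 and 1.70 CPM of unspliced UMIs on these plates, too few to show whether that level changed. How many of all genes have this pattern was not counted. These are descriptions, with no test. Poly-T primers can also start inside A-rich stretches of introns, so an unspliced share need not be a share of nascent transcripts.

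**Figure D4:**
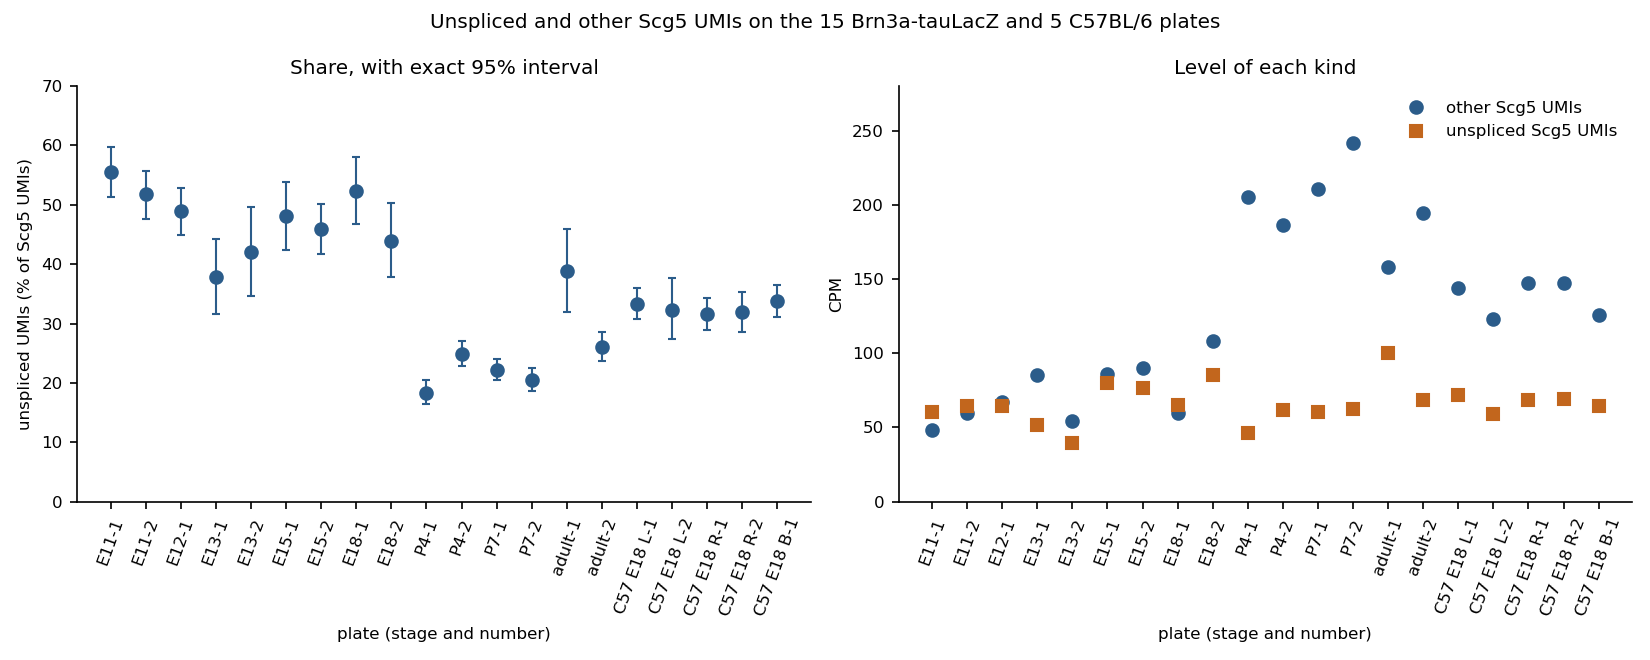
Left, unspliced share of Scg5 UMIs (%) on each of the 15 series plates and the 5 C57BL/6 plates (L left, R right, B both sides) with exact Clopper-Pearson 95% intervals; right, CPM of unspliced (orange squares) and other (blue circles) Scg5 UMIs. The share is 37.8% or more on embryonic plates of the series, 31.6% to 33.8% on the C57BL/6 plates and 24.9% or less at P4 and P7, and the blue circles of these 3 sets do not overlap while the orange squares do.

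Levels were also read in adult wells without Pou4f1. On adult plate 2, Pcsk1 had UMIs in 81.7% of 180 Pou4f1-positive wells and 3.23% of 62 myelin wells without Pou4f1, at 122 and 3.98 CPM, and Scg2 was at 211 and 9.93 CPM. For Pcsk1n the same classes held 1073 and 591 CPM, for Pcsk2 921 and 215 CPM, for Scg3 264 and 141 CPM, and for Scg5 304 and 133 CPM. As Tac2 UMIs were also found in nearly every myelin well, levels there are not read as expression.

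Across the 15 series plates, levels of the 10 genes were positively correlated in all 45 pairs (Pearson's r of log2(CPM + 1) from 0.114 for Chga and Cpe to 0.931 for Scg2 and Scg5, median 0.676). The points share stage, depth and makeup of the plates, so these values are descriptions. Among genes with a mean of at least 10 CPM, the 3 most similar to Scg2 were Gm44644, Ddhd1 and Hpcal4 (r = 0.972, 0.972 and 0.971). Those most similar to Pcsk1 were Eno2, Tom1l2 and Dzank1 (0.982, 0.981 and 0.976), and those to Chgb were Zranb2, Kifc2 and Atp6ap2 (0.985, 0.980 and 0.979). For Pcsk2 they were 2900011O08Rik, Resp18 and Golga7b (0.966, 0.948 and 0.940). For Scg5 they were Srcin1, Lrrc3b and Aldh5a1 (0.972, 0.966 and 0.961), and for Scg3 Dmxl2, St8sia3 and Syt7 (0.939, 0.936 and 0.931). Those most similar to Vgf were Ubr3, Las1l and Atp6v1h (0.908, 0.907 and 0.898), to Chga Gng3, Rundc3b and Uchl1 (0.859, 0.816 and 0.812), to Pcsk1n Dynll2, Ociad1 and Gprasp2 (0.952, 0.9502 and 0.931), and to Cpe 1700019D03Rik, Tspyl2 and Kcnc4 (0.958, 0.955 and 0.953).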

How the data were processed

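The 10 genes and all gene lists were chosen with earlier results of these data known. Every member that passed the low-count filter was tested in each comparison, but in some comparisons only part of them are named. Like genes were the 3 with the highest r, and list genes the 3 largest called changes. The authors deposited expected counts in tables of total and of unspliced transcripts. A value is a number of UMIs corrected for collisions among 4096 possible UMIs, as found from the values: inverting that correction gave whole numbers, within 1e-06, for 100% of values, against 46.1% (series) and 43.8% (C57BL/6 set) as deposited. Because the planned test assumed whole counts, deposited values were summed per plate and rounded. Reads were aligned with STAR 2.5.3a and build mm10 was used, per the submitters' processing notes; the sources used here do not give the counter, annotation or strand setting. Of the gene IDs, 37938 of 37994 and 36050 of 36104 were in GENCODE M21 (GRCm38).

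A well was kept if it had 1000 or more UMIs (spike-ins and mitochondrial transcripts not counted), 500 or more genes detected and no more than 20% mitochondrial UMIs; the 92 spike-in rows were left out and no doublet caller was run. Wells are named by their position among 384 on a plate, so names recur on all plates and cannot show shared cells. The replicate was the plate. Sums were tested with edgeR 4.0.16 under R 4.3.3 (filterByExpr, TMM, quasi-likelihood, Benjamini-Hochberg over all genes tested, threshold 0.05). Stage contrasts used the 14 plates of replicated stages, the stage-order trend all 15, left against right 4 plates, and classes of wells the plate as a block. On simulated counts (17453 genes, E11 to P7), 8%, 50%, 76% and 92% of genes changed 2-, 4-, 8- and 16-fold were called, and for Tac1-high wells (12025 genes) 82%, 92%, 100% and 98%, with 8 false calls in each. Myelin wells had at least 20 UMIs of 11 oligodendrocyte genes. Intervals cover counting error only. Alternatives used DESeq2 1.42.0, other filters, other wells and left-out plates. The labels do not say that replicate numbers pair plates.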

Additional observations from a re-analysis of the deposited data

Results flagged for a closer look

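In 58 comparisons of a gene over 4 to 8 plates, 6 values, on 4 plates, stood far from those of the other plates (Dixon's criterion, which flags about 1 in 20 such groups by chance). Pcsk2 on E13 plate 2 had a log2 ratio of 2.39 between Tac1-positive and Tac1-negative wells, from 344 and 32 counts, against 0.00 to 0.96 on the other 7 plates, and Pcsk1n on the same plate had 0.90, against -0.09 to 0.37. Scg2 on P4 plate 2 had a log2 ratio of 2.28 between Tac1-high and Tac1-low wells, with 47 counts in the 11 Tac1-high wells, against 0.67 to 1.03 elsewhere. Between Tac2-positive and Tac2-negative wells Cpe had 0.061 on right plate 2, against -0.36 to -0.25 on the other 4 plates. Adult plate 2 stood apart for Pcsk1n between Tac2 terciles (-0.28, against 0.03 to 0.14) and for Chgb between Tac1-high and Tac2-high wells (-0.64, against -0.31 to -0.28). For Chgb the P4 plates and the P7 plates moved in opposite directions between the Tac2 terciles, at 0.11 and 0.16 against -0.10 and -0.04; the difference in mean log2 ratio of 0.20 was not tested. No cause was tested for any of these.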

How the results depend on the processing

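Over 213 alternatives of the 18 counts of genes called, 171 stayed within 1.5 times the main count. For a main count of 0 this means 0 again. Of 374 alternatives of the 30 called changes 298 kept their call and 0 changed direction. The kept share differed between comparisons. Calls of the stage-order trend were kept in 20 or 21 of 21 alternatives, and those of E18 to P4 in 5 to 12 of 13. The cause of the changed counts and lost calls was not tested. From E18 to P4 (6 genes) the count was 3 without TMM factors and 3 with the replicate block, fits that called 3570 and 2916 of 17453 genes. It was 1 when only the 4 plates were fitted, beside 528 of 14765 genes. From E11 to P7 (5) it was 10 when only the 4 plates were fitted, a fit that called 9556 of 15114 genes. From P4 to P7 (0) it was 2 with no low-count filter, 3 with 4 plates only and 1 with DESeq2. The first 2 of these fits called 136 of 37590 and 541 of 14871 genes. From P7 to the adult (0) it was 2 with no filter and 1 with 4 plates only, beside 1766 of 37590 and 729 of 15228 genes. From E11 to E13 and from E13 to E15 (0) it was 1 with no filter, beside 1715 and 1249 of 37590 genes. Replicate numbers were not stated to pair plates, and same-number deviations correlated at -0.363 to 0.250 in the series and 0.233 between left and right; the replicate block moved no other count by more than 1.5 times. For wells with Tac1 alone against Tac2 alone (1) the count was 0 with all kept wells, 2 with DESeq2 and 0 with no replicate block; against wells with neither it was 1 after thinning. With all kept wells it was 1 for embryonic Tac1, 4 for Tac1 and 4 for Tac2 in the C57BL/6 set, 0 for Tac2 terciles and 1 for Tac1-high against Tac2-high wells. Thinning gave 0 for Tac1 and 0 for Tac2 in the C57BL/6 set, DESeq2 gave 0 for Tac2 terciles and 2 for Tac1-high against Tac2-high wells, and wells of at least 10000 UMIs gave 1 for the latter. Leaving out 1 plate gave 0 to 3 calls for E15 to E18, 1 to 9 for E18 to P4, 2 to 4 for E11 to P7, 5 to 7 for the trend, 0 to 1 for Tac1 alone against Tac2 alone, 0 to 1 for embryonic Tac1, 0 to 3 for Tac1 and 1 to 2 for Tac2 in the C57BL/6 set, 3 to 6 for Tac1-high wells, 0 to 1 for Tac2 terciles and 1 to 4 for Tac1-high against Tac2-high wells. A threshold of at least 3 UMIs left under 10 wells and gave no value for the comparisons of wells with Tac1 alone. Where no background stands beside an alternative count, here or above, the share of all genes called can differ from that of the main fit. Such counts are not read as results about the 10 genes. The 6 comparisons by Tac1 or Tac2 level, or before birth, and their alternatives were chosen after seeing the data. Depth limits Scg2 and Pcsk1 on the embryonic plates of the series, which held 0 to 37 and 0 to 23 UMIs.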
